A study of Mus musculus with 2 samples.

Results

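Ugt2a3, Ugt2b1, Ugt2b5, Ugt2b34, Ugt2b35, Ugt2b36, Ugt2b37, Ugt2b38, Ugt3a1 and Ugt3a2 were the genes of the Ugt2 and Ugt3 families of UDP-glycosyltransferases (UGTs) described here. The rule that picks them is their gene name and uses no measured value, although the set was proposed with earlier results of these data known. All 10 were found among the 43346 genes listed. Poly-A RNA was sequenced from adult mouse liver as 2 libraries of 1 group, replicate 1 and replicate 2. Per the labels, the strain was C57BL/6J, the animals were 8 weeks old, littermates of both sexes were pooled, and no genotype or treatment was given. The labels call them biological replicates and give them different biosample numbers but the same donor number. They do not say whether the libraries came from separate animals, so the spread between them may be partly technical. The reads were paired and stranded, 76 bases long, from RNA above 200 nucleotides, with spike-in RNAs added.

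UGTs are membrane enzymes of the endoplasmic reticulum that transfer a sugar from a UDP-sugar to lipophilic molecules, which makes these soluble enough to leave in bile or urine. UGT2 enzymes use UDP-glucuronate and act on steroids, bile acids and many drugs. The mouse Ugt2b genes have no direct partners among the human UGT2B genes, since the gene cluster expanded separately in rodents. UGT3 enzymes use other sugars, known chiefly from human proteins: human UGT3A1 uses UDP-N-acetylglucosamine, and human UGT3A2 uses UDP-glucose and UDP-xylose.

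The libraries held 60770411 estimated reads in replicate 1 and 61688916 in replicate 2. Hepatocyte markers (Alb, Ttr, Apoa1, Cps1, Cyp2e1) were present at all 5 genes and summed to 50497 TPM (a level scaled to transcript length and to the size of the library) in replicate 1 and 52482 TPM in replicate 2. The 5 bile duct markers summed to 21.2 and 18.7 TPM. The 6 kidney tubule markers summed to 0.34 and 0.10 TPM, and the 3 olfactory markers to 0.50 and 0.78 TPM with Cnga2 at 0 reads. The 6 intestinal markers summed to 13.5 and 9.24 TPM, of which Fabp2 held 11.4 and 5.82 TPM, while Sis had 0 reads in both libraries. Xist had 18451 and 26061 reads, and the Y-linked genes Ddx3y, Eif2s3y, Kdm5d and Uty had 0 reads in both libraries, which goes against the label of pooled sexes. Whether the sex of the animals had a part in any level below was not tested. In whole tissue, fewer cells of a type and less RNA per cell cannot be told apart.

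The sequences that bear on the results are of 2 kinds, both from mouse build GRCm38. The first are 76-base stretches of coding sequence, as long as a read, taken from the middle of the coding part of exon 1 (coding bases 325 to 400) of Ugt2b5, of its 2 closest copies Ugt2b38 and Ugt2b37, and of Ugt2b36, whose level was nearest to that of Ugt2b5. They are shown to let the letters behind shared and unshared reads be seen, although the mate of a paired read can still place it. They lie on the minus strand at chr5:87139907-87139982 (Ugt2b5), chr5:87254371-87254446 (Ugt2b37), chr5:87423772-87423847 (Ugt2b38) and chr5:87092125-87092200 (Ugt2b36). Capitals mark the 16 positions at which these 4 genes do not all hold the same base.
Ugt2b5: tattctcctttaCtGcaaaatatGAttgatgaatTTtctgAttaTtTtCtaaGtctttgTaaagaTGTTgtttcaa
Ugt2b37: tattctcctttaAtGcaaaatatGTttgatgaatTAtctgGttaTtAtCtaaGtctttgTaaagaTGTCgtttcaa
Ugt2b38: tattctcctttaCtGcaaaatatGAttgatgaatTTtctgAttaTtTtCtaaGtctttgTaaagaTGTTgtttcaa
Ugt2b36: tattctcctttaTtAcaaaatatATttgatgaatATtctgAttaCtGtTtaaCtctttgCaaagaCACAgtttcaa
In this stretch Ugt2b38 was identical to Ugt2b5, Ugt2b37 differed from Ugt2b5 at 6 positions, and Ugt2b36 differed from it at 14.

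The second kind are 100-base stretches that end before the annotated transcription start, from RefSeq promoters of GRCm38.p6. The annotated genes start at base 87140318 (Ugt2b5), 87254804 (Ugt2b37) and 87424203 (Ugt2b38), so the stretch ends farther from the start in Ugt2b5. They are shown because these 3 genes had similar promoter letters and very different levels, given below. They lie on the minus strand, Ugt2b5 at chr5:87140341-87140440, Ugt2b37 at chr5:87254806-87254905 and Ugt2b38 at chr5:87424207-87424306. Capitals mark the 25 positions at which the 3 genes do not all hold the same base.
Ugt2b5: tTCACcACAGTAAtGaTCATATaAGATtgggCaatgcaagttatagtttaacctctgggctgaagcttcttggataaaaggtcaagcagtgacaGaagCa
Ugt2b37: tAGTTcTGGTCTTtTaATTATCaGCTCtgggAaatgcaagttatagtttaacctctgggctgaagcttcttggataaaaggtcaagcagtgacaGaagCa
Ugt2b38: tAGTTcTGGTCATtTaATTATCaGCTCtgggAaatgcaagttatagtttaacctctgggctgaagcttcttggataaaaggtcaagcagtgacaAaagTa
Lined up without gaps, Ugt2b37 differed from Ugt2b5 at 23 positions, and Ugt2b38 differed from Ugt2b5 at 24 and from Ugt2b37 at 3. Most of these lay farther from the start, before a long stretch shared by the 3 genes. A gained or lost base shifts all letters beyond it in such a line-up, so the capitals are not a count of single-base changes. Identities from alignments with gaps are given below.

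The Ugt3a genes held the highest member. Ugt3a2 had 224.37 TPM in replicate 1, against 187.67 TPM in replicate 2, a mean of 206 ± 26.0 TPM (SD, n = 2), and ranked 561 and 674 among all genes. Its neighbour Ugt3a1 had 84.3 TPM in replicate 1, against 43.96 TPM in replicate 2, a mean of 64.1 ± 28.5 TPM (SD, n = 2). The level of Ugt3a1 was 37.6% of that of Ugt3a2 in replicate 1 and 23.4% in replicate 2, so the libraries gave the same order and a different ratio. Both together reached 308.63 and 231.63 TPM, or 32.8% and 27.8% of the summed level of the members.

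Among the Ugt2b genes, Ugt2b36 and Ugt2b5 were highest. Ugt2b36 had 172.33 and 152.11 TPM in replicates 1 and 2 (162 ± 14.3 TPM, SD, n = 2), and Ugt2b5 had 158.21 and 154.98 TPM (157 ± 2.28 TPM). Their ranges over the libraries overlapped. Ugt2b34 followed with 93.5 and 100.24 TPM (96.9 ± 4.77 TPM). Ugt2b1, whose rat namesake glucuronidates testosterone and bisphenol A, had 84.2 and 70.4 TPM (77.3 ± 9.73 TPM). Ugt2b35 was lower, at 21.3 and 28.5 TPM (24.9 ± 5.12 TPM). Of the Ugt2a genes analysed, Ugt2a3 had reads and Ugt2a2 had none, and the human counterpart of Ugt2a3 glucuronidates bile acids. Ugt2a3 had 101.27 and 92.8 TPM (97.0 ± 6.00 TPM), a range that overlapped with that of Ugt2b34.

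Ugt2b37 and Ugt2b38 were near the limit of detection used here, 1 TPM. Ugt2b37 had 1.42 TPM in replicate 1, against 2.58 TPM in replicate 2 (2.0 ± 0.820 TPM, SD, n = 2), from 118.09 and 217.04 estimated reads. Ugt2b38 had 0.05 TPM from 3.87 estimated reads in replicate 1, and 1.17 TPM from 98.1 estimated reads in replicate 2. Ugt2b5 was 111.4-fold above Ugt2b37 in replicate 1 and 60.1-fold above it in replicate 2. Ugt2b5 was 3164-fold above Ugt2b38 in replicate 1, where Ugt2b38 rests on 3.87 reads, and 132.5-fold above it in replicate 2. The highest over the lowest member, Ugt3a2 over Ugt2b38, was 4487-fold and 160.4-fold, so the span of the family depends on the library.

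**Figure D1:**
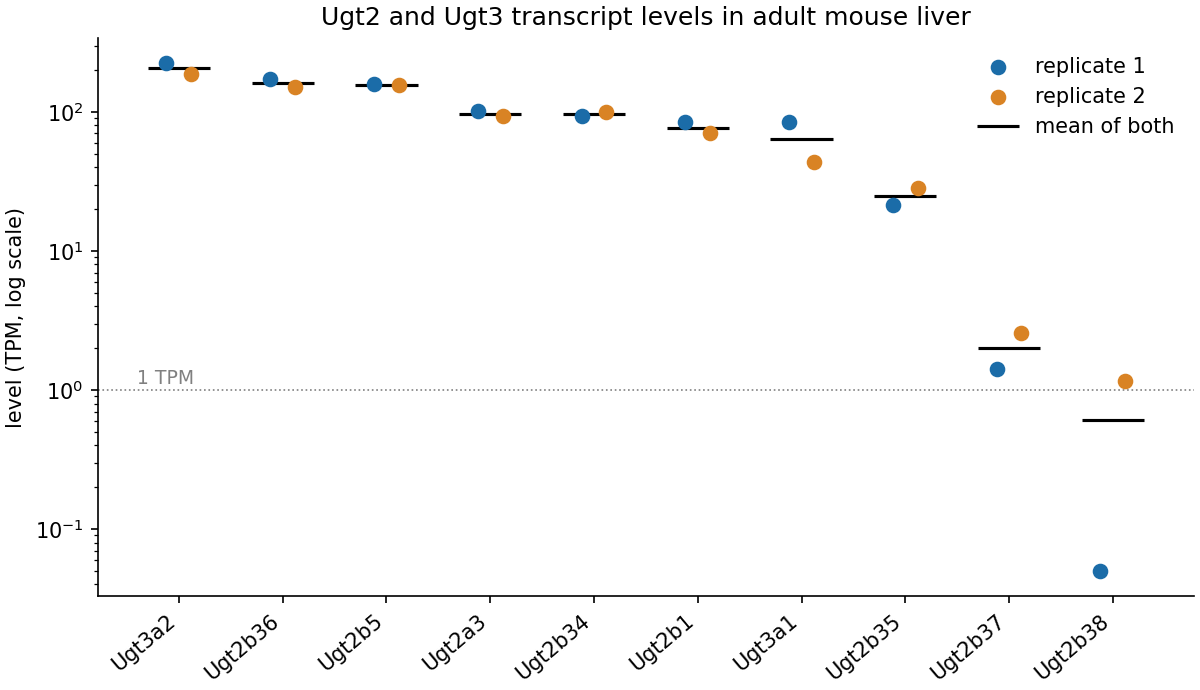
TPM on a log axis for each member in replicate 1 (left point) and replicate 2 (right point), ordered by the mean (bar), with a dotted line at 1 TPM. 8 members lie at 10 TPM or more in both libraries, Ugt2b37 lies between 1.42 and 2.58 TPM, and Ugt2b38 is on both sides of 1 TPM.

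In order of mean level the members were Ugt3a2, Ugt2b36, Ugt2b5, Ugt2a3, Ugt2b34, Ugt2b1, Ugt3a1, Ugt2b35, Ugt2b37 and Ugt2b38. The neighbours Ugt2b36 and Ugt2b5, Ugt2a3 and Ugt2b34, and Ugt2b1 and Ugt3a1 overlapped in their ranges over the libraries. All other neighbours in that order stood apart, with 1 point per library behind each range. At 1 TPM or more in both libraries, 9 of 10 members were detected. The members summed to 940.84 TPM in replicate 1 and 834.42 TPM in replicate 2 (888 ± 75.3 TPM, SD, n = 2), which was 0.0888% of all TPM. The 3 highest members held 59.0% and 59.3% of that sum.

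The 9 Ugt1a genes summed to 734.95 and 891.51 TPM, so the members held 56.1% of the summed level of both groups in replicate 1 and 48.3% in replicate 2. Ugt2a2, and Ugt8a, which makes galactosylceramide in myelin-forming cells, had 0 reads. With 3 reads as the limit of a count of 0, this allows up to 0.0337 and 0.0333 TPM of Ugt2a2, and up to 0.0181 and 0.0179 TPM of Ugt8a. Ugt2a1 was not analysed here.

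The level of a gene with near-identical copies depends on how reads are shared out. Over the coding sequence, Ugt2b5 and Ugt2b38 were 97.05% identical (47 differing bases of 1593 aligned), Ugt2b5 and Ugt2b37 were 94.66% identical, and Ugt3a1 and Ugt3a2 were 93.26% identical. Ugt2b36 was nearest to Ugt2b35 (88.49%) and Ugt2b5 (88.45%). The nearest copies of Ugt2b5 were far below it in level: Ugt2b38 stood at 0.0316% of Ugt2b5 in replicate 1 and 0.755% in replicate 2, and Ugt2b37 at 0.898% and 1.67%.

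**Figure D2:**
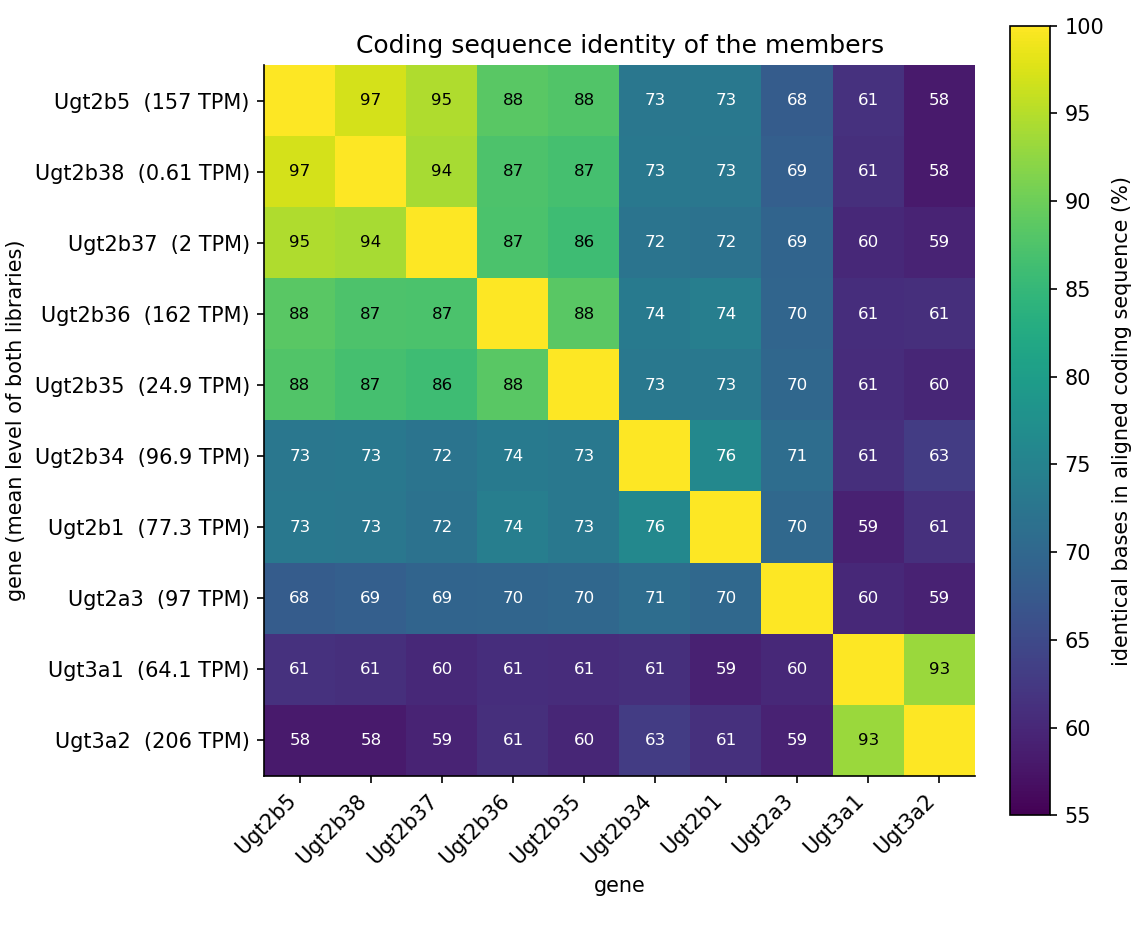
Percent of identical bases in pairwise alignments of the coding sequences of the leading transcripts, with the mean TPM of each gene beside its name. The block of Ugt2b5, Ugt2b38 and Ugt2b37 (94.1% to 97.05%) holds a gene at 157 TPM and others at 2.0 and 0.61 TPM.

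Of all 76-base windows of the leading transcript, 30.12% in Ugt2b5, 27.75% in Ugt2b38 and 6.05% in Ugt2b37 also occurred in another member, and the printed exon 1 stretch of Ugt2b5 and Ugt2b38 is such a window. The share was 1.76% for Ugt2a3, 1.21% for Ugt2b34, 1.43% for Ugt3a1 and 1.38% for Ugt3a2. Ugt2b36, Ugt2b1 and Ugt2b35 shared 0 windows. No window of any member occurred in an annotated transcript of the genes and pseudogenes whose levels were not analysed here. The authors' posterior SD of the read number, their own estimate of the doubt in sharing out reads, was at most 0.24% of the reads for 9 of 10 members. For Ugt2b38 it was 25.8% of 3.87 reads in replicate 1 and 2.64% of 98.1 reads in replicate 2. In the Ugt1a genes, which share their last exons, it ran from 0.316% to 42%.

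The 8 Ugt2 members lie within 534.437 kb of chromosome 5 (GRCm38, chr5:86889767-87424203), 7 on the minus strand and Ugt2b35 on the plus strand. In order along the chromosome they are Ugt2b34, Ugt2b1, Ugt2b35, Ugt2b36, Ugt2b5, Ugt2b37, Ugt2a3 and Ugt2b38. The interval holds 26 annotated genes, of which 15 are pseudogenes (9 unprocessed and 6 processed). The levels of these 15 were not analysed here. The 2 small nuclear RNA genes in it were listed at 0 TPM. Position did not order the levels: Ugt2a3 at 97.0 TPM lies between Ugt2b37 at 2.0 TPM and Ugt2b38 at 0.61 TPM. Ugt3a1 and Ugt3a2 lie head to tail on the plus strand of chromosome 15 (chr15:9276888-9370955), with no other annotated gene between them.

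**Figure D3:**
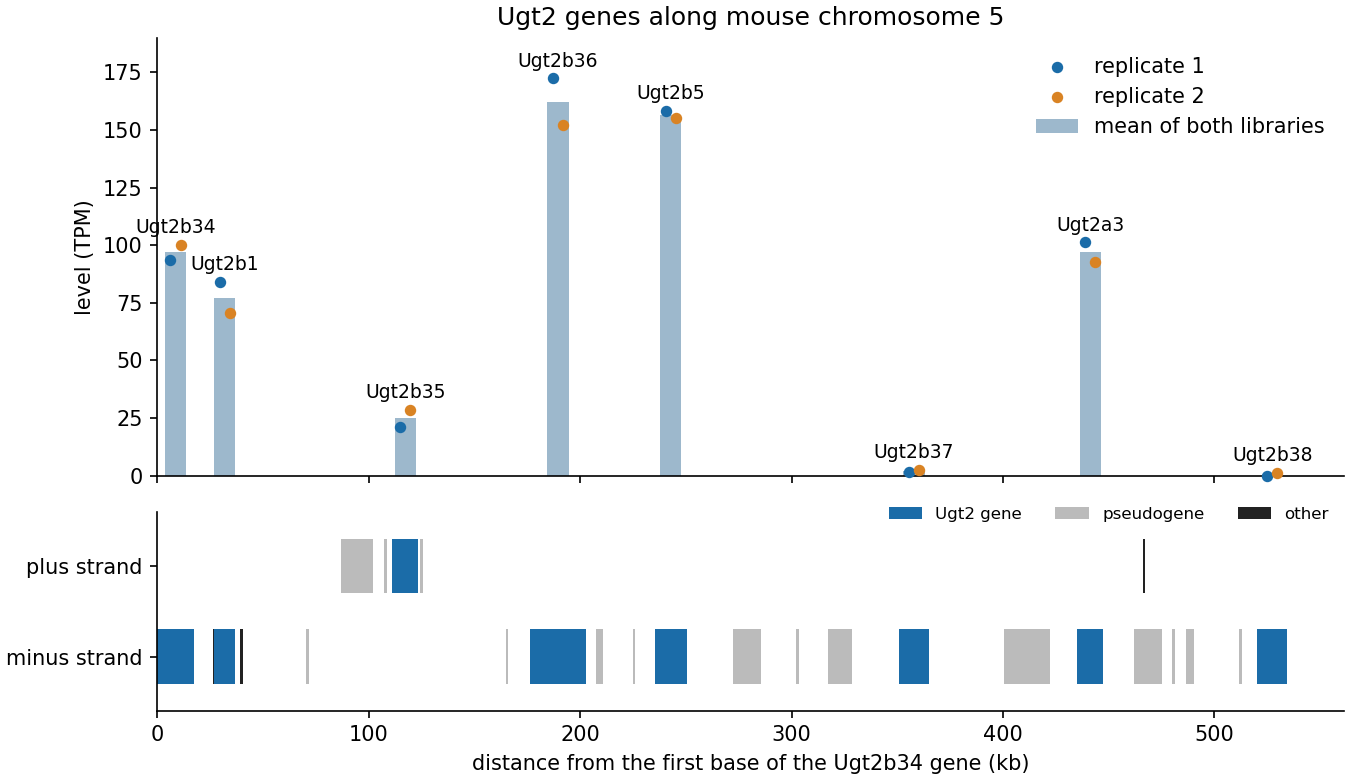
Upper panel, mean TPM (bars) and TPM in replicates 1 and 2 (points) at the place of each Ugt2 gene, against distance in kb from the first base of Ugt2b34. Lower panel, the annotated genes on each strand, drawn at least 1.2 kb wide. The low genes Ugt2b37 and Ugt2b38 flank Ugt2a3.

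For 6 members a lone isoform was listed, and the other 4 had several, with 19 isoforms in all. The same isoform led in both libraries for all 10 members. The leading isoform held 99.1% ± 0.42 of Ugt2b34 and 99.4% ± 0.24 of Ugt3a2 (SD, n = 2). In Ugt2b36 it held 94.8% ± 0.57, and a transcript with a retained intron took 4.25% in replicate 1 and 3.80% in replicate 2. In Ugt3a1 it held 91.8% and 92.5%, and a transcript with no annotated coding sequence took 6.01% and 6.88%. Ugt3a1 thus differed in level between the libraries while its isoform shares moved by less than 2 percentage points. The leading transcripts have 6 exons in the Ugt2 genes and 7 in the Ugt3a genes.

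Promoters of 9 of 10 members had an entry in the RefSeq table, all but Ugt3a2. Over the 250 bases before the start, Ugt2b38 was 95.34% identical to Ugt2b37 and 88.33% identical to Ugt2b5 in aligned bases, and Ugt2b37 was 88.05% identical to Ugt2b5. Ugt2b36, at a level like that of Ugt2b5, was 69.57% identical to it. Thus the promoter of Ugt2b5, at 157 TPM, was closer in letters to those of the low genes Ugt2b37 and Ugt2b38 than to that of Ugt2b36, at 162 TPM. These alignments allowed gaps and counted aligned bases only, so distant pairs also scored high. Ugt2a3 and Ugt2b37 reached 65.64%, Ugt2b34 and Ugt3a1 64.88%, and the lowest pair, Ugt2a3 and Ugt3a1, 52.38%. Motifs were searched on both strands from 250 bases before to 50 bases after the start. CAAAGTCCA, an HNF4A-like site with up to 1 mismatch, was found in 2 of 9 members, Ugt2b5 and Ugt2b38, against 8.47% of all 32851 promoters and 9.51% of the 1935 promoters of genes at a mean of 50 TPM or more. With the start base as 0, the matches ran from base 2 to 10 in Ugt2b5 and from base -1 to 7 in Ugt2b38, at or after the start. TATAAA was found in 1 of 9, Ugt3a1, from base -8 to -3, closer to the start than a TATA box usually lies, against 13.6% of all promoters and 10.1% of those of the higher genes. The members share descent, so their promoters are not separate observations, and a match is not a site shown to be bound.

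With 1 group there was no contrast of conditions, and the libraries themselves were compared, as replicate 1 over replicate 2. Rounded read counts of each gene were compared with the share set by scaled library sizes. The test was two-sided exact binomial, adjusted by Benjamini-Hochberg over 14533 genes. Its intervals cover counting error only, and it compares these libraries, not conditions. By it 9 of 10 members differed, 6 with more scaled reads in replicate 1 and 3 with more in replicate 2. The background was 57.6% of all genes tested, 29.0% being higher in replicate 1 and 28.6% in replicate 2, and it was 75.9% of genes at a mean of 10 TPM or more. At a difference of 1.5-fold or more, 3 members were called, Ugt3a1, Ugt2b37 and Ugt2b38, against 16.7% of all genes. That share was 8.41% of genes at a mean of 10 TPM or more, a level that Ugt2b37 and Ugt2b38 do not reach. The median log2 ratio was 0.20 over the members and -0.003 over all genes, and the median size of the log2 ratio was 0.34 and 0.26. With scaling by total reads or spike-ins the member median was 0.081 or 0.052, and that of all genes was -0.126 or -0.155.

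**Figure D4:**
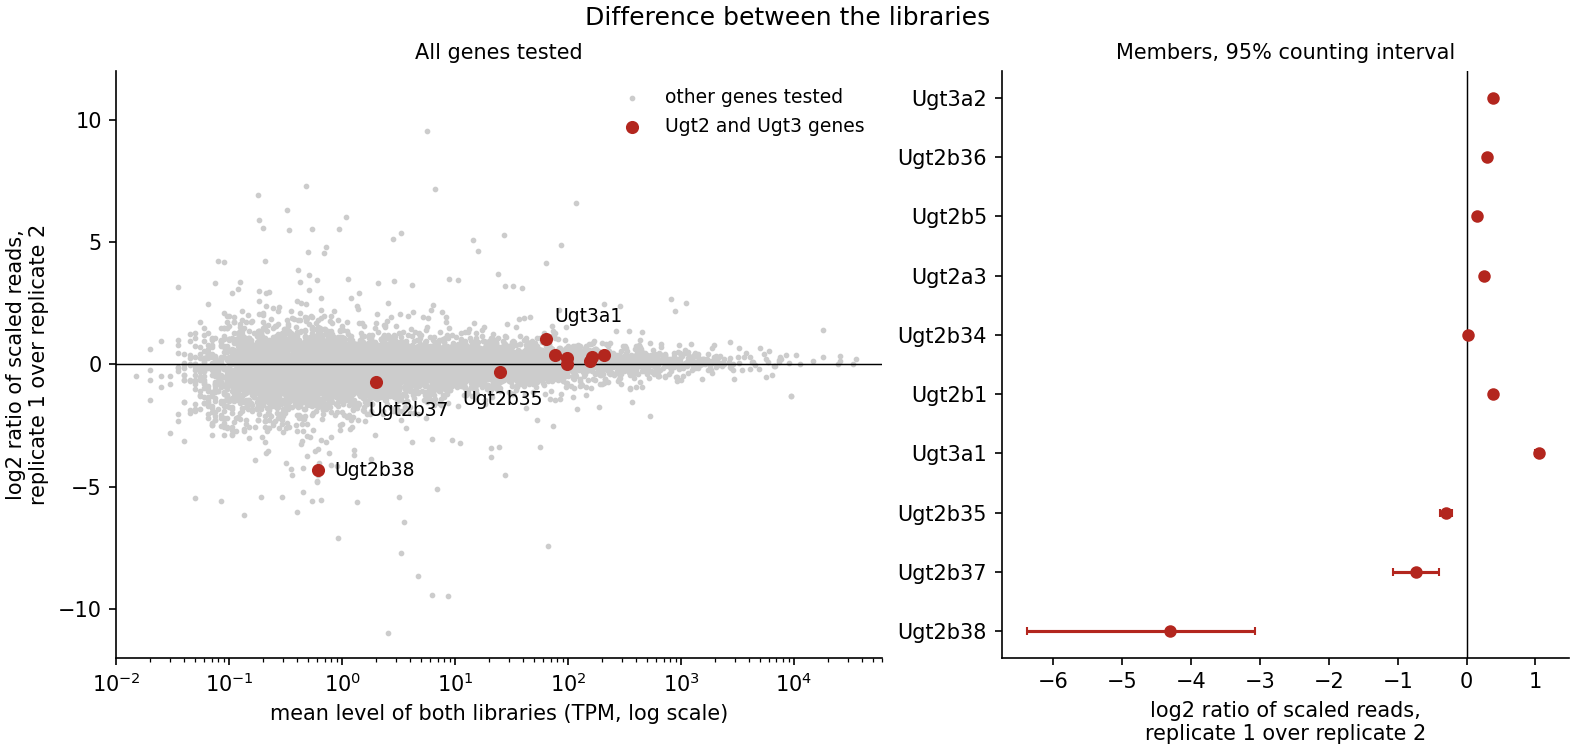
Left, log2 ratio of scaled reads, replicate 1 over replicate 2, against mean TPM (log axis) for all genes tested (grey) and the members (red). Right, the members with 95% counting intervals, in order of mean level. 7 members lie within 0.4 of 0, and Ugt3a1, Ugt2b37 and Ugt2b38 lie farther out.

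Ugt3a1 differed most among the members with many reads. It had 7829 reads in replicate 1 and 4167.17 in replicate 2, 2.08-fold higher in replicate 1 (log2 ratio 1.05, interval 1.00 to 1.11), with an adjusted p too small for the software to represent. Its neighbour Ugt3a2 differed less in the same direction, with 23388 reads in replicate 1 and 19781.8 in replicate 2 (log2 ratio 0.39, interval 0.36 to 0.41, exact test, adjusted p = 4.767e-168). Some markers of other cell types were also higher in replicate 1, and others were lower or not called. In the intestinal list, 1 of 3 tested markers was higher, Fabp2 (log2 ratio 1.08, exact test, adjusted p = 8.53e-20). Muc2 was lower (log2 ratio -0.53), Vil1 was not called and Cdx2 had 2 and 3 reads. In the bile duct list, 2 of 5 were higher, Sox9 (0.54) and Spp1 (0.32), and Krt19, Krt7 and Epcam were not called. In the olfactory list, Adcy3 was lower (-0.88), Omp was not called (0.96, from 18 and 10 reads) and Cnga2 had 0 reads. The 1 kidney tubule marker tested, Lrp2, was not called (-0.94, from 12 and 26 reads). Of the 5 hepatocyte markers, 4 were higher in replicate 1 and 1 was lower, and 29.0% of all genes tested were higher. Among genes at a mean of 10 TPM or more, 2601 of 5481 were higher. The hepatocyte log2 ratios ran from -0.05 for Apoa1 to 0.40 for Ttr, with Alb at 0.012 and Cyp2e1 at 0.058. All these marker calls are given for 1 scaling only. Scaling by total reads or spike-ins lowered the median log2 ratio of all genes to -0.126 or -0.155. What part cells of other types had in the Ugt3a1 difference was not tested.

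In the Ugt2 genes the differences were small except at the lowest levels. Ugt2b1 (log2 ratio 0.39), Ugt2b36 (0.30), Ugt2a3 (0.25) and Ugt2b5 (0.155) were higher in replicate 1, with exact test adjusted p from 1.675e-70 for Ugt2b1 to 5.81e-17 for Ugt2b5. Ugt2b34 had 13081 and 14217.5 reads and was not called (log2 ratio 0.02, interval -0.01 to 0.06, exact test, adjusted p = 0.230). When the libraries were scaled by total reads or by spike-ins, Ugt2b34 was called lower in replicate 1, and Ugt2b5 was no longer called. These scalings moved the median log2 ratio of all genes to -0.126 and -0.155, and the share of called genes that were higher in replicate 1 to 30.7% and 26.3%, against 50.3% with the scaling used here. Of the members, 5 were then higher in replicate 1 and 4 in replicate 2.

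The 3 members of lowest level were all lower in replicate 1. Ugt2b35 had 1629 reads in replicate 1 and 2213 in replicate 2 (log2 ratio -0.30, interval -0.39 to -0.20, exact test, adjusted p = 1.15e-09). Ugt2b37, with 118.09 and 217.04 reads, was 1.66-fold higher in replicate 2 (exact test, adjusted p = 2.11e-05). Ugt2b38, with 3.87 and 98.1 reads, was 19.8-fold higher in replicate 2 (log2 ratio -4.31, interval -6.37 to -3.07, exact test, adjusted p = 1.15e-21). With a prior count of 5 added in place of 0.5 the difference was 10.4-fold (log2 ratio -3.37). The interval does not hold the doubt in sharing reads with Ugt2b5: the reads of Ugt2b38 were 0.0300% of those of Ugt2b5 in replicate 1 and 0.767% in replicate 2. What part that sharing had in the difference was not tested.

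Glucuronidation needs its cofactor UDP-glucuronate, and all 6 genes of a list drawn up around it were detected at 1 TPM or more in both libraries. Whether each of the 6 adds to the supply of the cofactor was not tested. The highest were Slc35b1, a carrier of the endoplasmic reticulum membrane, at 73.5 ± 8.00 TPM, and Ugdh at 65.1 ± 7.51 TPM (SD, n = 2). Ugdh oxidises UDP-glucose to UDP-glucuronate. Of the 6, 4 were higher in replicate 1, 0 were higher in replicate 2 and 2 were not called. That is 66.7% called, against 57.6% of all genes and 75.9% of genes at a mean of 10 TPM or more. With scaling by total reads or by spike-ins, 1 was higher in replicate 1 and 2 in replicate 2. Among 5 genes of glucuronide export and cleavage, the carriers Abcc3, which faces the blood, and Abcc2, which faces bile, were highest at 230 ± 29.1 and 223 ± 45.2 TPM. Gusb, the lysosomal enzyme that cleaves glucuronides, had 15.4 ± 0.198 TPM. In that list 2 were higher in replicate 1, 1 was higher in replicate 2 and 2 were not called. The share of 60% called is near the 57.6% of all genes and below the 75.9% of genes at 10 TPM or more. With those scalings, 1 was higher in replicate 1 and 2 in replicate 2.

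Of 11 regulators, 10 were detected at 1 TPM or more in both libraries. Of these, 4 were higher in replicate 1, 4 were higher in replicate 2 and 2 were not called. The share of 80% called is near the 75.9% of genes at 10 TPM or more, and the share was 57.6% of all genes. With scaling by total reads 4 were higher in replicate 1 and 6 in replicate 2, and with spike-ins 3 and 6. Hnf4a, a nuclear receptor that sets hepatocyte identity, had 262.54 and 223.89 TPM, and Nr1i3, the xenobiotic receptor CAR, had 180.57 and 197.38 TPM. Cdx2, an intestinal factor, had 2 and 3 reads.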

How the data were processed

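Per the file headers, the deposited gene and transcript tables hold, for each of 2 libraries, estimated counts of reads (expected counts), TPM, the authors' posterior mean counts and posterior SD of the count (used here as a score of doubt), and for transcripts the percent of the gene's level. Per the submitters' processing notes, the assembly was mm10 and the annotation M4; the sources used here name no counting program. TPM covers all entries, spike-ins included. Junction and contig files were not used.

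Groups and replicate numbers follow the labels. Levels are means and SDs of TPM. Estimated counts were rounded, genes with at least 20 reads over both libraries kept (14533), libraries scaled by TMM (edgeR 4.0.16 in R 4.3.3), and each gene compared by a two-sided exact binomial test with Benjamini-Hochberg adjustment at 0.05 (Python 3.11.15, scipy 1.17.1). Intervals are exact at 95%. With 1 library on each side, no quasi-likelihood fit was possible. Depths were 60770411 and 61688916 estimated reads. Alternatives covered scaling (DESeq2 1.42.0 size factors among them), filters, the prior count, posterior means and each library alone; the scalings of the 3 gene lists were added after seeing the data. Coordinates, exons and coding sequences are from GENCODE M21 on GRCm38, promoters from RefSeq GRCm38.p6. Ugt2b35 is 1758 bases long in the tables and 3359 in M21. The text names every member and, of each list, the 2 highest genes, those at 0 reads and others a sentence turns on. Members and lists were chosen with earlier results of these data known.
Some planned genes and a motif are not reported here.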

Additional observations from a re-analysis of the deposited data

How the results depend on the processing

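The summed level of the members was 834.42 to 940.84 TPM with either library alone, 910.77 TPM when rescaled to genes and 881.37 TPM from posterior means. The number of members called stayed at 9 under all 6 alternatives, and 8 members kept both direction and call under all 4 scalings; the number of genes called ran from 7700 to 8701. Exceptions came from scaling. Ugt2b34 turned to a log2 ratio of -0.098 (exact test, adjusted p = 7.98e-08) with total reads and -0.127 (adjusted p = 1.85e-12) with spike-ins. Ugt2b5 lost its call at 0.033 (adjusted p = 0.110) and 0.0034 (adjusted p = 0.893). The level of Ugt2b5 moved to 160.68 TPM when rescaled to genes, and the share of the leading Ugt3a1 isoform to 91.4% from posterior means. The log2 ratio of Ugt2b38 ran from -4.46 to -3.37, the smallest difference coming with a prior count of 5 added to 3.87 reads. No paired analysis was possible because there was 1 group. In replicate 1, the 3.87 reads of Ugt2b38 are close to the limit of 3 reads, 0.0361 TPM. With 2 libraries, the SDs are themselves imprecise.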
